A study of Mus musculus with 6 samples.

Results

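Cells make and import the amino acids they need for growth through a set of enzymes and transporters that share a regulator. When amino acids run short or the endoplasmic reticulum is stressed, kinases phosphorylate the translation factor eIF2. General protein synthesis then slows while the mRNA of the transcription factor ATF4 is translated more, and ATF4 raises transcription of serine, asparagine and proline synthesis enzymes, amino acid transporters and tRNA synthetases. Growing T cells also run this programme downstream of the growth kinase mTORC1, because clonal expansion needs serine and folate-bound carbon units for nucleotides. Because ATF4 is controlled largely by translation, its mRNA level is not a measure of ATF4 protein.

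Expression of 34 genes of amino acid synthesis and the ATF4 response was followed in 6 bulk RNA-seq samples of mouse CD8+ T cells. The genes were a given list of symbols, matched by GENCODE name to the count table, and all 34 were found among its 57126 genes. The cells came from the lymph nodes and spleens of OT-I mice, whose transgenic T cell receptor recognises ovalbumin, and both groups were stimulated with the same nano-aAPCs, nanoparticles that carry the peptide-MHC ligand and an antibody to CD28. The 3 TEff samples were expanded with mIL-2 alone and the 3 TRM-like samples with mIL-2, mIL-15 and mTGF-β, a mix meant to give cells with the features of tissue-resident memory T cells. RNA was taken on day 6 of culture, and the study's medium held added L-glutamine and nonessential amino acids in both groups. The cytokines came together, so the part of IL-15 and that of TGF-β cannot be told apart. The labels do not give the mouse, the culture or the age behind each replicate, so p-values measure the spread between these samples, which may be technical.

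The samples held 18319013 to 23622621 counts. Itgae, which encodes the residency integrin CD103, was at 20.1 to 29.97 CPM (counts per 1000000 counts of the TMM-scaled library) in TEff and at 707, 742 and 284 CPM in TRM-like samples 1 to 3. Cdh1, another gene that the study links with residency, was at 0.457 to 0.709 CPM in TEff. In TRM-like samples 1 to 3 Cdh1 was at 72.9, 63.8 and 66.2 CPM, so sample 3 was close to the others there. Cd8a was at 421 to 448 CPM in TEff and at 927 to 989 CPM in TRM-like, where it was called higher (log2 fold change 1.14, edgeR adjusted p = 0.00219). It was the only 1 of 5 CD8 T cell markers called, and Cd8b1, Cd3d, Cd3e and Cd3g were not. Cd3d was at 356 to 381 CPM in TEff and at 508, 585 and 300 CPM in TRM-like samples 1 to 3. Cd3g was at 512 to 537 CPM in TEff and at 1060, 1166 and 518 CPM in TRM-like samples 1 to 3. The CD4 T cell gene Cd4 did not pass 0.111 CPM. The summed level of 5 myeloid markers was 3.75 to 4.81 CPM in TEff and 2.63 to 4.59 CPM in TRM-like. For 5 B cell markers the sum was 5.94 to 6.78 CPM in TEff and 7.29 to 10.9 CPM in TRM-like. For 5 erythroid markers it was 0.608 to 1.06 CPM in TEff and 0.646 to 0.959 CPM in TRM-like. Nearly all of the erythroid sum was Alas2, and Hba-a1 and Hba-a2 were at 0 in every sample. The NK cell markers Ncr1 and Klrb1c summed to 9.83 to 21.97 CPM in TEff, 8.77 and 6.95 CPM in TRM-like samples 1 and 2 and 0.0922 CPM in TRM-like sample 3. The third TRM-like sample stood apart from the other TRM-like samples. It had a count for 24229 genes, near the 24235 to 24908 of the TEff samples, whereas TRM-like samples 1 and 2 had counts for 35130 and 35559 genes. The 6 MCM helicase genes encode subunits of the replicative helicase and rise in dividing cells. Their summed level was 1721, 1111 and 1676 CPM in TEff samples 1 to 3. It was 718 and 685 CPM in TRM-like samples 1 and 2 and 2016 CPM in TRM-like sample 3. The counts of called genes are therefore given with the 6 samples and again without TRM-like sample 3. The gap in detected genes and the gap in MCM genes divide the samples the same way as many of the genes described here, and their part in these results was not tested. In bulk RNA, a lower level in each cell cannot be told apart from fewer cells that express the gene.

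The 34 genes leaned toward lower expression in TRM-like cells, but few passed the test. A gene was called when its edgeR quasi-likelihood test gave an adjusted p below 0.05 over all 26154 genes tested and its log2 fold change (TRM-like minus TEff) was beyond 0.58 in either direction. All 34 genes were tested, 2 were called lower and 0 were called higher, against 1.48% of all genes tested called lower and 1.52% called higher. The genes called lower were Pycr1, a proline synthesis enzyme, and Nupr1, a small stress-induced transcription regulator. At an unadjusted p under 0.05, 6 of the 34 genes were lower and 1 was higher, where 6.45% of all genes tested were lower and 8.35% higher. DESeq2 and limma-voom also called 0 genes higher. The fitted log2 fold change was negative for 30 genes and positive for 4 (Wars1, Cbs, Atf5 and Ddit4), with a median of −0.42, where the median of all genes tested was 0.02.

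TRM-like samples 1 and 2 were both below every TEff sample in 24 of the 34 genes, while 23.4% of all genes tested did so. Over all genes tested, 25% had both of these samples above every TEff sample. TRM-like sample 3 was below every TEff sample in 8 of the 34 genes, within the TEff range in 15 and above it in 11. It was also higher than both other TRM-like samples in 29 of them. For these placements of TRM-like sample 3 no share over all genes tested was taken. They describe that sample and are not read as particular to the 34 genes. All 3 TRM-like samples lay below all TEff samples for 6 genes (Asns, Pycr1, Slc3a2, Slc1a5, Nupr1 and Chac1), where 9.71% of all genes tested did so, and above them for 1 gene (Wars1), where 10.6% did so. The remaining 27 genes overlapped between the groups.

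Without TRM-like sample 3, the same test called 18 of the 34 genes lower and 0 higher. That sample was left out because it was seen to stand apart from the other TRM-like samples. The p-values of this fit therefore leave out the spread it adds inside the TRM-like group. Calls over all genes were 786 with 6 samples and 3579 in this fit. Over all genes tested in that fit, 7.67% were called lower and 6.38% higher. At an unadjusted p under 0.05, 1 of the 34 genes, Wars1, was higher there, where 15.1% of all genes tested were. The 6 MCM helicase genes were all called lower in that fit, and 0 of them with 6 samples. The median log2 fold change of the 34 genes was then −0.83, with 0.02 over all genes tested. In 13 of the 18 genes, TRM-like sample 3 lay within or above the TEff range, so these calls describe the other TRM-like samples only. The TEff samples were not alike either, since TEff sample 2 was the lowest TEff sample for 27 of the 34 genes. No share over all genes tested was taken for that count.

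**Figure D1:**
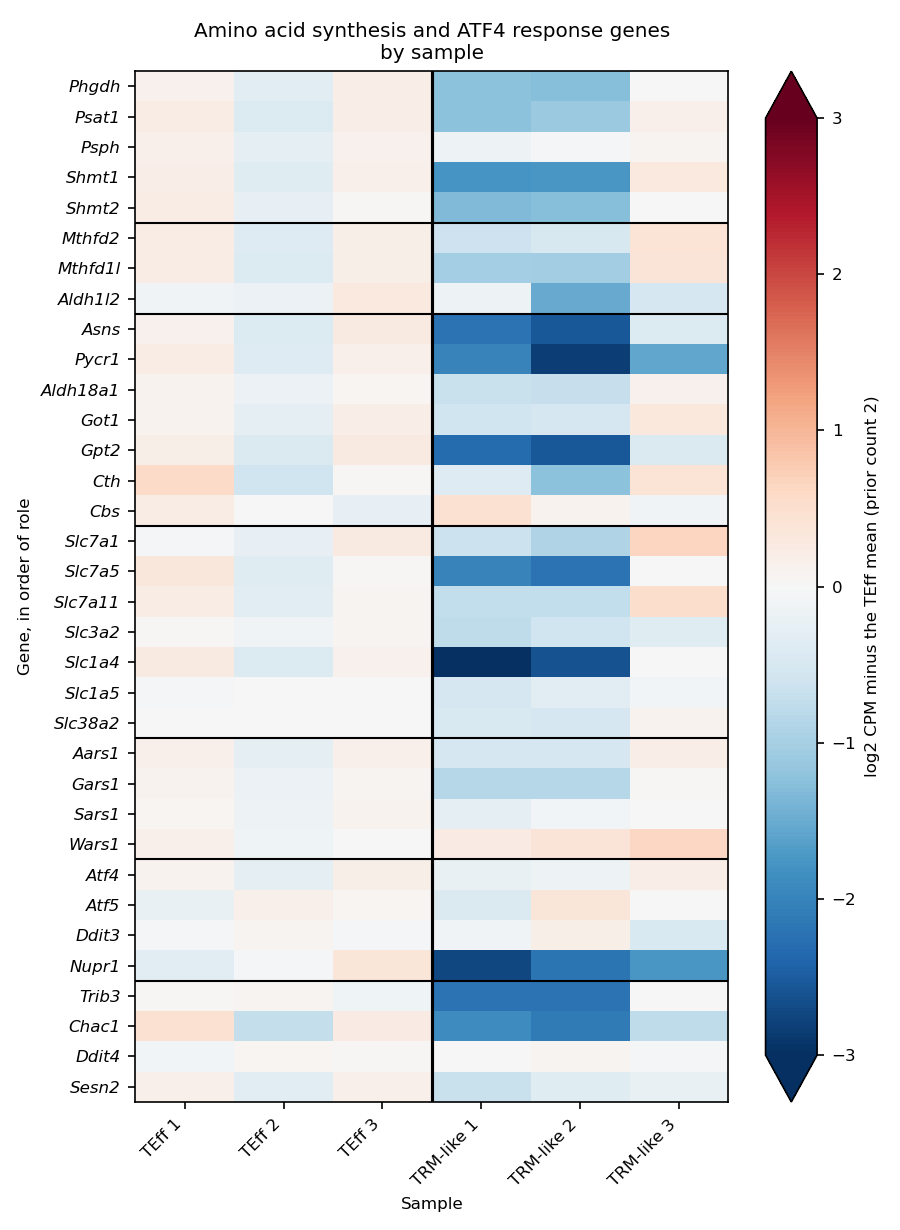
Heat map of the 34 genes (rows, ordered by role) in the 6 samples (columns), coloured by log2 CPM minus the mean of the TEff samples, with a prior count of 2. The columns of TRM-like samples 1 and 2 are mostly on the low side, with medians of −0.67 and −0.79, and the column of TRM-like sample 3 has a median of 0.01.

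**Figure D2:**
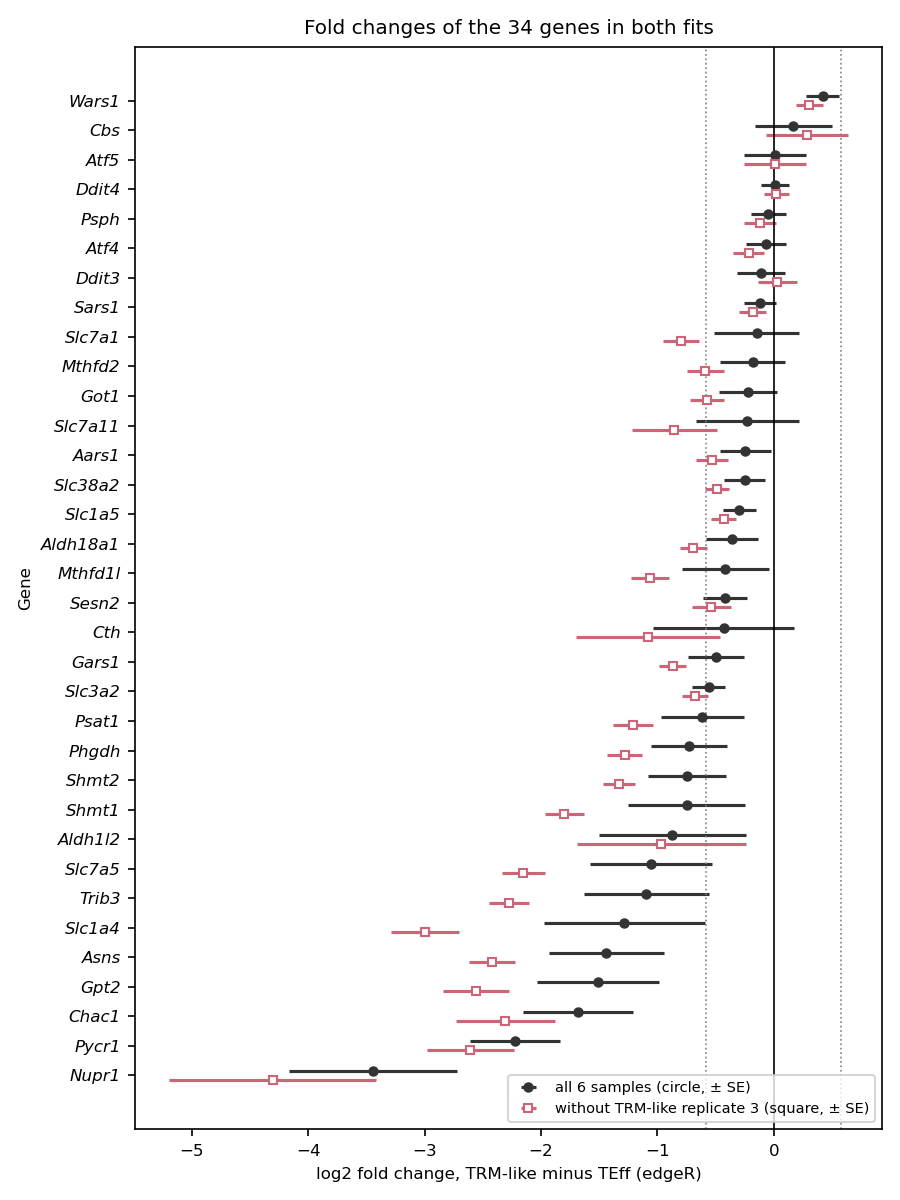
Log2 fold change (TRM-like minus TEff, edgeR) of each of the 34 genes with all 6 samples and without TRM-like sample 3. With 6 samples 2 genes were called lower, and without TRM-like sample 3 the number was 18.

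ATF4 binds DNA with C/EBP family partners at a composite element, here searched as the letters TGATGNAA or, on the other strand, TTNCATCA, in the 300 bases from 250 upstream to 50 downstream of the start of each gene's canonical transcript (GRCm39, GENCODE). That start can lie inside the span of the whole gene, as it does for Pycr1. Of 21685 protein-coding promoters, 834 (3.85%) held it, compared with 8 of the 34 genes (23.5%): Aars1, Chac1, Ddit3, Gars1, Got1, Gpt2, Pycr1 and Slc7a11. The list is named for the ATF4 response, so this share is not independent evidence about these cells. Among the 18 genes called lower without TRM-like sample 3, 4 held the letters (22.2%), and among the other 16 genes 4 held them (25%). The shares in these subsets of the 34 genes were close to each other. The stretch of Pycr1 is shown because it is the called gene that holds the letters, and those of Chac1, Gpt2 and Ddit3 were added after their values were seen. These stretches set genes with TRM-like samples 1 and 2 below every TEff sample (Pycr1, Chac1 and Gpt2) beside a gene without that shape (Ddit3). Each is printed 5′ to 3′ on the strand of the gene, with the matching letters in capitals.
Pycr1 (chr11:120534644-120534703, minus strand, match starting 79 bases upstream of that start): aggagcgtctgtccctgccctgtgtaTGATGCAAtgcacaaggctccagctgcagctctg
Chac1 (chr2:119181519-119181548, plus strand, 159 bases upstream): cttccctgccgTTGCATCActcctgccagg
Gpt2 (chr8:86218828-86218857, plus strand, 149 bases upstream): tatggctgggaTGATGAAActcaaggcgaa
Ddit3 (chr10:127126335-127126394, plus strand, 199 bases upstream): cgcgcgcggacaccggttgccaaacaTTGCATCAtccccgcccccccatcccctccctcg
A match is a description of the letters, and whether ATF4 occupied these stretches was not measured.

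Levels of different genes were compared per length, as CPM per kilobase of the deposited gene length. Atf4 had the highest mean level of the 34 genes in TEff, 96.0 ± 15.04 CPM per kilobase (SD, n = 3), followed by the glycyl-tRNA synthetase gene Gars1 at 81.2 ± 8.17 and by Phgdh at 67.1 ± 12.4. Shmt2 at 61.0 ± 9.85 and the glutamine carrier gene Slc1a5 at 60.4 ± 1.39 CPM per kilobase came next, and these neighbours lay within their spread of each other. At the low end were Slc7a11 at 0.112 ± 0.0220 and Aldh1l2 at 0.05004 ± 0.0118 CPM per kilobase.

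Among the transcription factors of the response, Atf4 itself overlapped between the groups. It was at 175, 136 and 185 CPM in TEff samples 1 to 3 and at 141, 146 and 187 CPM in TRM-like samples 1 to 3. Its log2 fold change was −0.07 (95% interval −0.45 to 0.32, edgeR adjusted p = 0.895), and without TRM-like sample 3 it was −0.22 (edgeR adjusted p = 0.294). Atf5, a related factor that is also translated more under stress, was at 2.29, 2.99 and 2.76 CPM in TEff and 1.96, 3.45 and 2.67 CPM in TRM-like. Ddit3, which encodes the stress factor CHOP, was at 5.85, 6.28 and 5.75 CPM against 5.54, 6.73 and 4.29 CPM. Neither Atf5 (log2 fold change 0.01, 95% interval −0.59 to 0.62) nor Ddit3 (−0.11, −0.58 to 0.36) was called. In the GENCODE release used here for positions, which is later than the one the reads were counted on, Ddit3 shares exon bases with Mars1 on the opposite strand. Aldh1l2, Psph, Shmt1, Shmt2, Mthfd1l, Asns, Pycr1, Aldh18a1, Slc7a1, Slc3a2, Slc1a4, Slc38a2, Aars1, Sars1, Atf5 and Nupr1 also share exon bases with an opposite-strand gene. For Pycr1 the shared stretch is 17 bases, and Aars1 also shares bases with Exosc6 on its own strand. The partners of Nupr1 (Gm39087), Mthfd1l, Slc1a4 and Slc38a2 have no row in the count table. The strand setting of the counting is not given in the sources used here, so reads of such pairs may not be separated.

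Nupr1 (chr7:126222414-126230033) was the exception among the factors, at very low counts. It had 9, 10 and 13 counts in TEff samples 1 to 3 and 0, 1 and 2 counts in TRM-like samples 1 to 3, so the groups did not overlap. The summed counts, 32 against 3, scaled for library size, gave a TEff to TRM-like ratio of 12.1 with a 95% interval of 3.77 to 61.5 that covers counting error only. It was called with the 6 samples (edgeR adjusted p = 0.0388), but the call held only without TRM-like sample 3 (edgeR adjusted p = 0.00386) and was lost when any other sample was left out (edgeR adjusted p up to 0.182).

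None of the 5 serine and glycine synthesis genes was called with 6 samples, and 4 of them were called lower without TRM-like sample 3. Phgdh, the first and committed enzyme of the pathway, was at 137, 100 and 144 CPM in TEff samples 1 to 3 and at 53.3, 51.9 and 125 CPM in TRM-like samples 1 to 3. TRM-like samples 1 and 2 thus held 42.0% and 40.9% of the TEff mean, and TRM-like sample 3 held 98.2% of it. Its log2 fold change was −0.73 ± 0.33 (SE, edgeR adjusted p = 0.351) with 6 samples and −1.28 ± 0.15 (edgeR adjusted p = 5.92e-05) without TRM-like sample 3. Psat1, the transaminase of the next step, also had low TRM-like samples 1 and 2, at 170, 110 and 168 CPM in TEff and 62.6, 67.6 and 163 CPM in TRM-like. It had a log2 fold change of −0.61 ± 0.35 (edgeR adjusted p = 0.496), or −1.21 ± 0.17 (edgeR adjusted p = 0.000256) without TRM-like sample 3. Psph, the phosphatase that releases serine, differed from these neighbours of its pathway. It was at 37.5, 28.2 and 37.0 CPM in TEff and at 30.4, 33.1 and 36.1 CPM in TRM-like, with all TRM-like samples inside the TEff range, and it was called in neither fit (log2 fold change −0.05, 95% interval −0.39 to 0.30, and −0.12 without TRM-like sample 3).

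The serine hydroxymethyltransferases, which turn serine into glycine and load a carbon unit on folate, both had low TRM-like samples 1 and 2. Cytosolic Shmt1 was at 65.4, 44.6 and 63.4 CPM in TEff and at 16.6, 16.9 and 69.8 CPM in TRM-like, where sample 3 was above every TEff sample. Mitochondrial Shmt2 was at 163, 117 and 142 CPM in TEff and at 55.6, 57.1 and 138 CPM in TRM-like, where sample 3 was inside the TEff range. Both had a log2 fold change of −0.75 with 6 samples (edgeR adjusted p = 0.560 for Shmt1 and 0.345 for Shmt2). Without TRM-like sample 3 they were lower by −1.80 ± 0.16 (Shmt1, edgeR adjusted p = 6.42e-06) and −1.33 ± 0.14 (Shmt2, edgeR adjusted p = 2.28e-05) on the log2 scale. Per length, Shmt1 was at 20.2 ± 4.02 CPM per kilobase in TEff, below Shmt2, and it was the lower of the pair in every sample.

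The folate enzymes carry the same carbon units onward in mitochondria, and 2 of these 3 genes were called lower without TRM-like sample 3. Mthfd2, a dehydrogenase induced in dividing cells, was at 75.7, 50.1 and 73.1 CPM in TEff and at 42.4, 46.4 and 86.8 CPM in TRM-like. Mthfd1l, which releases formate, was at 139, 89.8 and 134 CPM in TEff and at 58.9, 57.4 and 156 CPM in TRM-like. In both genes TRM-like samples 1 and 2 were below every TEff sample and TRM-like sample 3 was above every TEff sample. Neither was called with 6 samples (log2 fold change −0.18 for Mthfd2 and −0.42 for Mthfd1l), and both were called lower without TRM-like sample 3, Mthfd2 by −0.59 ± 0.16 (edgeR adjusted p = 0.0195) and Mthfd1l by −1.06 ± 0.17 (edgeR adjusted p = 0.000569). Aldh1l2, a mitochondrial formyl-folate dehydrogenase, had 6, 5 and 7 counts in TEff and 6, 1 and 4 counts in TRM-like, a ratio of 1.85 with a counting interval of 0.827 to 4.33, and no difference was detectable at this depth.

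Pycr1, the mitochondrial enzyme of the last step of proline synthesis, had the smallest p of the 34 genes. It had 71, 41 and 56 counts in TEff samples 1 to 3 and 14, 7 and 19 counts in TRM-like samples 1 to 3, that is 3.25, 2.08 and 3.09 CPM against 0.611, 0.306 and 0.876 CPM. Every TRM-like sample, the third included, was below every TEff sample. Pycr1 (chr11:120526484-120539269) was 4.68-fold lower in TRM-like, a log2 fold change of −2.23 ± 0.39 (95% interval −3.10 to −1.35, edgeR adjusted p = 0.0166). Leaving out 1 sample at a time moved it between −2.61 and −1.91, and the call was lost without TEff sample 1 (edgeR adjusted p = 0.109), TEff sample 3 (0.102) or TRM-like sample 1 (0.0533). Aldh18a1, which starts proline synthesis from glutamate, was at 103, 84.9 and 98.8 CPM in TEff and 59.8, 59.5 and 105 CPM in TRM-like. It was not called with 6 samples (log2 fold change −0.36, edgeR adjusted p = 0.535) and was called lower without TRM-like sample 3 (−0.69 ± 0.12, edgeR adjusted p = 0.00105).

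Asns, the asparagine synthetase and a classical ATF4 target, was at 51.7, 35.7 and 57.1 CPM in TEff and at 10.1, 7.99 and 35.2 CPM in TRM-like. The groups did not overlap, although TRM-like sample 3 was just under TEff sample 2 and held 73.2% of the TEff mean, where the other TRM-like samples held 21.0% and 16.6%. The log2 fold change was −1.44 ± 0.49 (95% interval −2.56 to −0.32, edgeR adjusted p = 0.209) and it was −2.42 ± 0.20 (edgeR adjusted p = 2.47e-06) without TRM-like sample 3. Gpt2, the mitochondrial alanine transaminase, had a similar shape at a lower level, 6.22, 4.05 and 6.69 CPM in TEff and 1.05, 0.874 and 4.06 CPM in TRM-like. Here TRM-like sample 3 was just above TEff sample 2, so the groups overlapped. The log2 fold change of Gpt2 was −1.51 ± 0.52 (edgeR adjusted p = 0.213), or −2.56 ± 0.28 (edgeR adjusted p = 3.89e-05) without TRM-like sample 3. Got1, the cytosolic aspartate transaminase, was at 35.9, 27.1 and 38.5 CPM against 21.98, 23.8 and 41.5 CPM and was called in neither fit. The genes that make cysteine from homocysteine were not called in either fit: Cth had 15, 5 and 8 counts in TEff and 7, 3 and 13 counts in TRM-like, and Cbs was at 0.960, 0.810 and 0.663 CPM against 1.13, 0.874 and 0.738 CPM.

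**Figure D3:**
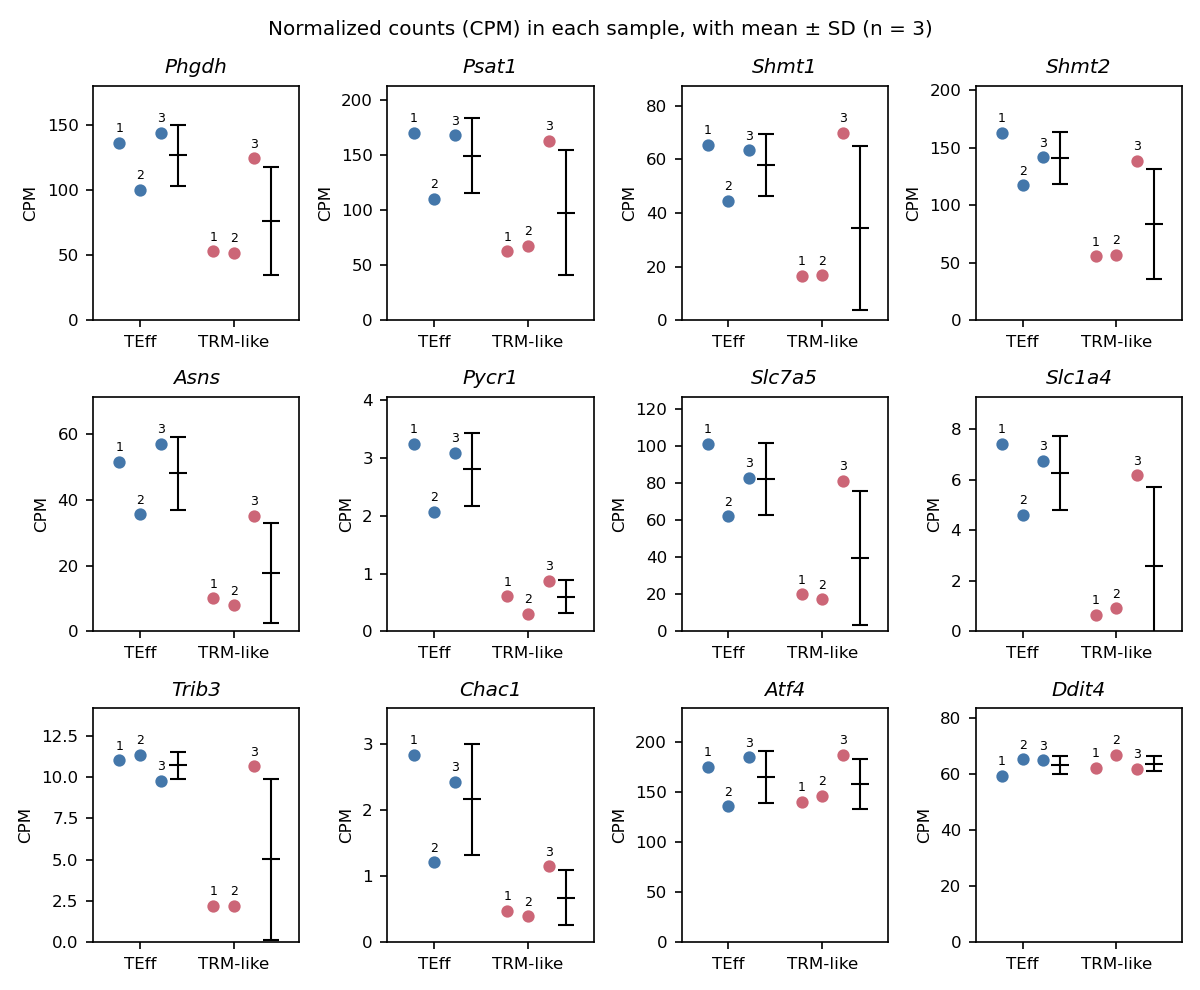
CPM (linear axes starting at 0) of 12 genes in each sample, with points numbered by replicate and bars giving the mean ± SD of 3 samples in each group. In Phgdh, Psat1, Shmt2, Slc7a5, Slc1a4 and Trib3 the third TRM-like point sits among the TEff points, in Pycr1 all TRM-like points lie below them, and in Atf4 and Ddit4 the groups overlap.

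None of the 7 amino acid transporter genes was called with 6 samples, and 4 were called lower without TRM-like sample 3. Slc7a5 encodes LAT1, the carrier of leucine and other large neutral amino acids in activated T cells. It was at 101, 62.2 and 83.1 CPM in TEff and at 20.0, 17.3 and 81.4 CPM in TRM-like, so that TRM-like samples 1 and 2 held 24.4% and 21.0% of the TEff mean and TRM-like sample 3 held 99.1%. Without TRM-like sample 3 its log2 fold change was −2.15 ± 0.19 (edgeR adjusted p = 3.95e-06), and with 6 samples the 95% interval, −2.25 to 0.14, spanned 0. Slc3a2, which encodes the heavy chain CD98 that LAT1 needs to reach the membrane, was less variable. It was at 89.4, 80.7 and 91.9 CPM in TEff and at 51.8, 58.02 and 68.1 CPM in TRM-like, with every TRM-like sample below every TEff sample. Its log2 fold change of −0.56 ± 0.14 (95% interval −0.88 to −0.24, edgeR adjusted p = 0.0821) was not called, and without TRM-like sample 3 it was called lower at −0.68 ± 0.11 (edgeR adjusted p = 0.000911).

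Slc1a4, a carrier of serine, alanine and other neutral amino acids, had a wide gap inside the TRM-like group. It was at 7.41, 4.61 and 6.74 CPM in TEff and at 0.654, 0.917 and 6.18 CPM in TRM-like, and without TRM-like sample 3 its log2 fold change was −2.99 ± 0.29 (edgeR adjusted p = 1.2e-05). With 6 samples it was −1.28 ± 0.69 (edgeR adjusted p = 0.457). Slc7a1, a carrier of arginine and other cationic amino acids, was at 52.0, 45.6 and 65.2 CPM in TEff and at 34.1, 28.7 and 84.3 CPM in TRM-like, so sample 3 was the highest of all 6 samples. It was called lower only without that sample (−0.80 ± 0.15, edgeR adjusted p = 0.00233). Slc1a5 and Slc38a2 carry glutamine and other neutral amino acids. Slc1a5 was at 163, 169 and 169 CPM in TEff against 118, 132 and 159 CPM in TRM-like. Slc38a2 was at 167, 164 and 168 CPM against 121, 118 and 180 CPM. Neither passed the fold limit in either fit (log2 fold changes −0.30 for Slc1a5 and −0.25 for Slc38a2, or −0.43 and −0.48 without TRM-like sample 3). Slc7a11, the cystine importer, was low at 1.28, 0.861 and 1.16 CPM against 0.611, 0.612 and 1.61 CPM and was called in neither fit.

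The 4 tRNA synthetase genes, which charge tRNAs with alanine, glycine, serine and tryptophan, did not follow one direction. Gars1 was at 206, 171 and 202 CPM in TEff and at 106, 107 and 197 CPM in TRM-like, and it was the only one of the 4 called without TRM-like sample 3 (−0.87 ± 0.12, edgeR adjusted p = 0.000197). With 6 samples it was not called (−0.50 ± 0.24, edgeR adjusted p = 0.394). Aars1 was at 130, 95.8 and 130 CPM against 82.3, 82.7 and 135 CPM, and Sars1 at 152, 130 and 155 CPM against 120, 138 and 143 CPM, with overlap in both genes. Wars1, which interferon also induces, went the other way. It was at 67.1, 55.2 and 59.8 CPM in TEff and at 71.8, 79.0 and 92.6 CPM in TRM-like, with every TRM-like sample above every TEff sample. Its log2 fold change was 0.42 (95% interval 0.09 to 0.75, edgeR adjusted p = 0.211), and it was not called in any fit that left out 1 sample (log2 fold changes 0.30 to 0.51).

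Among the effectors and brakes of the response, Chac1 and Trib3 had low TRM-like samples 1 and 2, while Ddit4 and Sesn2 were called in neither fit. Chac1, which degrades glutathione, was at 2.83, 1.21 and 2.43 CPM in TEff and at 0.480, 0.393 and 1.15 CPM in TRM-like, with every TRM-like sample below every TEff sample. It had 24 counts in TEff sample 2 and 25 in TRM-like sample 3, so only the library scaling put the latter lower. Its log2 fold change was −1.68 ± 0.47 (95% interval −2.75 to −0.61, edgeR adjusted p = 0.119), or −2.31 ± 0.43 (edgeR adjusted p = 0.00197) without TRM-like sample 3. DESeq2 called it with 6 samples (adjusted p = 0.0223). Trib3, a pseudokinase that is induced by ATF4 and restrains it, was at 11.02, 11.3 and 9.78 CPM in TEff and at 2.22, 2.23 and 10.7 CPM in TRM-like. TRM-like samples 1 and 2 each held 20.8% of the TEff mean and TRM-like sample 3 held 99.4%, so that the log2 fold change was −1.09 (95% interval −2.30 to 0.12, edgeR adjusted p = 0.397) with 6 samples and −2.27 ± 0.18 (edgeR adjusted p = 1.35e-06) without the third. Ddit4, a brake on mTORC1, was at 59.3, 65.2 and 64.8 CPM against 62.1, 66.7 and 61.8 CPM and overlapped between the groups, with a 95% interval of −0.26 to 0.28 for the log2 fold change. Sesn2, a leucine sensor upstream of mTORC1, was at 16.0, 11.7 and 16.2 CPM against 9.16, 11.2 and 12.5 CPM and had a log2 fold change of −0.42 (edgeR adjusted p = 0.342). Without TRM-like sample 3 it passed the adjusted p (edgeR, 0.0378) but at −0.54 not the fold limit.

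Another 165 genes of the same pathways, taken as 9 lists and chosen with earlier results of these data known, were then described, and 162 of them were tested. With 6 samples 3 were called higher and 6 lower, with a median log2 fold change of −0.12. Over all genes tested, 1.52% were called higher and 1.48% lower. Without TRM-like sample 3, 7 were called higher and 44 lower, with a median of −0.32. In that fit 6.38% of all genes tested were called higher and 7.67% lower. The same shares stand beside the counts of each list below. The 16 other cytosolic tRNA synthetases were 0 higher and 0 lower with 6 samples, and 0 higher and 10 lower without TRM-like sample 3, among them Cars1 for cysteine (log2 fold change −0.75, then −1.32 with edgeR adjusted p = 0.000173). All 16 had a negative log2 fold change with 6 samples. Of the 17 mitochondrial synthetases 1 was higher and 0 were lower, with 2 higher and 2 lower without TRM-like sample 3. The gene called with 6 samples was Aars2 for alanine, at 17.6, 14.3 and 16.2 CPM in TEff and 24.8, 27.6 and 26.3 CPM in TRM-like (log2 fold change 0.71 ± 0.14, edgeR adjusted p = 0.0274). The calls of Aars2, Aldh1l1 and Rragb each held without TRM-like sample 3 and were lost when any other sample was left out, with edgeR adjusted p up to 0.141.

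Upstream of ATF4, 1 of the 15 genes of the eIF2 kinases, eIF2 and its exchange factor eIF2B was called lower and 0 higher, and without TRM-like sample 3 there were 4 lower and 0 higher. Eif2ak3, which encodes PERK, the eIF2 kinase of the endoplasmic reticulum, was at 94.97, 123 and 91.3 CPM in TEff and at 52.3, 56.6 and 42.0 CPM in TRM-like. It was 2.05-fold lower in TRM-like (log2 fold change −1.04 ± 0.17, edgeR adjusted p = 0.0129), with TRM-like sample 3 the lowest of the 6, and the call was lost without any 1 of the TEff samples (edgeR adjusted p up to 0.0652). Eif2ak2, which encodes the double-stranded RNA sensor PKR, was at 40.3, 38.2 and 41.1 CPM against 59.4, 59.2 and 55.0 CPM. It passed the adjusted p (edgeR, 0.0447) but at 0.54 not the fold limit.

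Of the 16 unfolded protein response genes, 1 was lower and 0 higher, with 5 lower and 0 higher without TRM-like sample 3. The gene called with 6 samples was Atf6, a membrane-bound sensor of that response, at 84.1, 83.8 and 82.1 CPM in TEff and 47.9, 46.6 and 49.6 CPM in TRM-like (log2 fold change −0.80, edgeR adjusted p = 0.0068). The 3 TRM-like samples of Atf6 were close to each other, unlike those of Phgdh or Asns. Among 17 other ATF4 response genes (16 tested), Atf3, a stress-induced repressor, was the 1 called lower, at 3.43, 2.02 and 2.87 CPM against 0.393, 0.743 and 0.507 CPM (log2 fold change −2.33 ± 0.35, edgeR adjusted p = 0.00807), and 0 were higher. Without TRM-like sample 3 that list had 7 lower and 0 higher. Without TEff sample 1 or TEff sample 3 the calls of Atf3, Atf6 and Slc7a3 were lost, with edgeR adjusted p up to 0.073.

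Among 22 other enzymes of amino acid metabolism, 1 was called lower, which is not reported here, and 0 higher with 6 samples, and 5 were lower and 0 higher without TRM-like sample 3. Bcat1, the cytosolic transaminase of leucine, isoleucine and valine, was at 32.4, 20.6 and 32.9 CPM against 2.75, 3.01 and 20.9 CPM, and was called lower only without TRM-like sample 3 (−3.32 ± 0.22, edgeR adjusted p = 4.01e-07). Of the 17 other transporters (15 tested), Slc7a3, a cationic amino acid carrier, was the 1 called lower, at 2.61, 1.62 and 2.93 CPM against 0.480, 0.306 and 0.599 CPM (log2 fold change −2.36 ± 0.37, edgeR adjusted p = 0.0105), and 0 were higher. Without TRM-like sample 3 that list had 2 lower and 0 higher. Of the 19 other folate and glycine genes, Aldh1l1, the cytosolic formyl-folate dehydrogenase, was the 1 called higher and 0 were lower, and without TRM-like sample 3 there were 1 higher and 7 lower. It was at 0.549, 0.658 and 0.276 CPM in TEff and at 3.36, 3.76 and 1.34 CPM in TRM-like (log2 fold change 2.49 ± 0.47, edgeR adjusted p = 0.0258).

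The 26 mTORC1 and amino acid sensing genes were nearly balanced, with 1 higher, 1 lower and a median log2 fold change of 0.03, or 4 higher, 2 lower and −0.03 without TRM-like sample 3. Both calls with 6 samples were Rag GTPases, which bring mTORC1 to the lysosome when amino acids are present. Rragd was at 1.23, 1.21 and 0.995 CPM in TEff and at 6.02, 6.20 and 6.502 CPM in TRM-like, 5.40-fold higher (log2 fold change 2.43 ± 0.21, edgeR adjusted p = 0.000596), and it stayed called whichever sample was left out. Rragb was at 8.96, 9.37 and 9.28 CPM in TEff and at 4.67, 5.07 and 5.35 CPM in TRM-like (log2 fold change −0.87 ± 0.16, edgeR adjusted p = 0.0216). In both genes the 3 TRM-like samples lay together and apart from TEff.

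**Figure D4:**
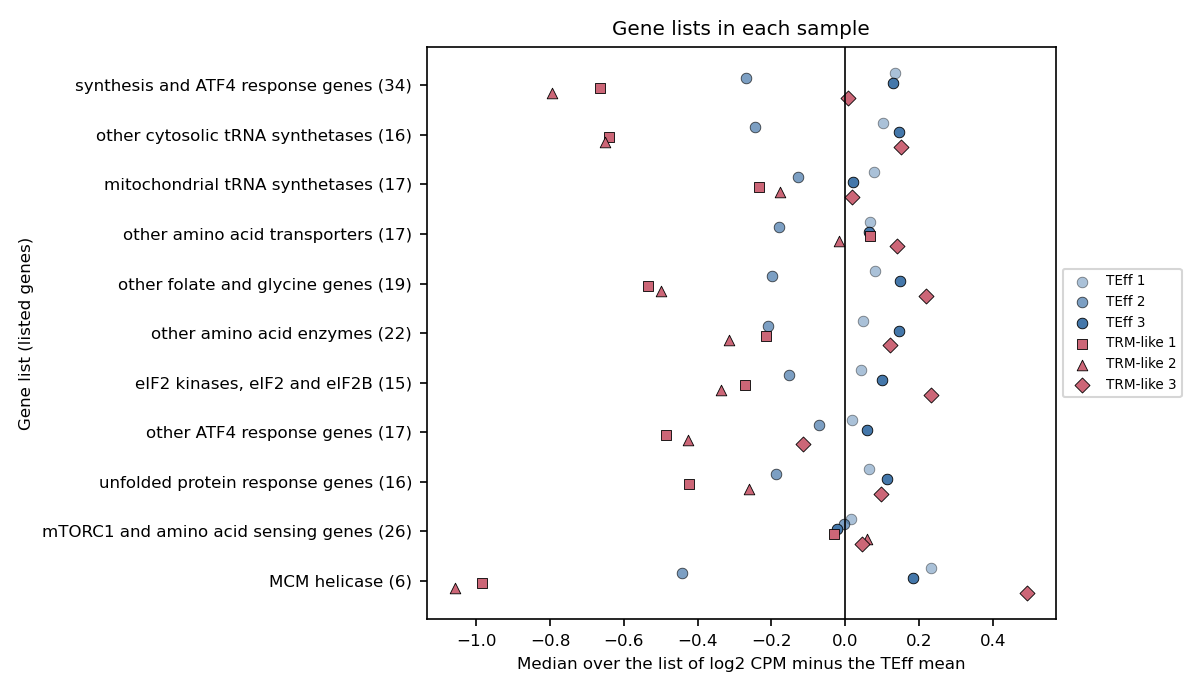
Median over each gene list of log2 CPM minus the TEff mean, 1 point for each of the 6 samples. The lists are the 34 genes as 1 list, the other pathway lists and the MCM helicase genes. TRM-like samples 1 and 2 are to the left of the TEff samples for the 34 genes (−0.67 and −0.79) and for the MCM genes (−0.99 and −1.06). TRM-like sample 3 is not (0.01 for the 34 genes and 0.49 for the MCM genes), and the mTORC1 list stays near 0.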

How the data were processed

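Total RNA-seq libraries (TruSeq Stranded Total RNA) of 3 TEff and 3 TRM-like samples were analysed. The authors deposited raw read counts per gene from featureCounts, unnormalized, with gene lengths. The submitters' processing notes name cutadapt 4.8, DESeq2 1.40.2 and GRCm39, and the strand setting of the counting is not given in the sources used here. Gene names, positions and transcript starts came from a later GENCODE release than the one the authors counted on, by identifier, matching 56620 of 57126 genes. Ddit3 has a second gene model with 0 counts in every sample, and the longer was used. Genes counted (1 read or more) in 3 or more samples were tested with edgeR 4.0.16 (R 4.3.3; TMM, glmQLFit and glmQLFTest, group as the only term because the study's batch is not named), with Benjamini-Hochberg adjustment over all genes tested. The fold limit is that of the study's methods. The filter is a reading of their wording and kept another number of genes than they give. CPM are counts divided by the TMM-scaled library size times 1000000, and SEs are the log2 fold change over the square root of F. Alternatives were DESeq2 1.42.0, limma-voom 3.58.1, other scalings and filters, a replicate block and leaving out each sample. The fit was tested on simulated data. All 34 genes were named, with some of the 3 genes of smallest p in each other list. Some genes of the other lists are not reported here. The members and lists were chosen with earlier results of these data known. The 95% intervals of log2 fold changes use residual plus prior degrees of freedom.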

Additional observations from a re-analysis of the deposited data

How the results depend on the processing

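The count of the 34 genes called higher was 0 under every alternative. The count called lower, 2 with 6 samples, was 1 with edgeR's filterByExpr, 0 with at least 10 counts required in every sample (which removed Pycr1 and Nupr1), 12 with no filter and 12 under a replicate block (the number in the labels), 4 with the block and at least 10 counts together, and 0 to 18 when 1 sample was left out, the 18 without TRM-like sample 3. With no filter the median log2 fold change of all genes was 0.38, and there and under the block edgeR's prior degrees of freedom were infinite. The counts for the other 165 pathway genes, 3 higher and 6 lower, were 5 and 14 with no filter, 5 and 19 under the block, and 1 to 7 and 0 to 44 when 1 sample was left out. Calls over all genes, 786 with 6 samples, were 1264 with DESeq2, 1868 with no filter, 2034 under the block and 263 to 3579 when 1 sample was left out. Deviations of same-numbered samples from their group means correlated at −0.29, 0.31 and 0.39 for replicates 1 to 3. The TRM-like mean includes the sample that stood apart, so these values cannot decide whether the number pairs the samples. Whether samples shared a batch or culture was not tested. Neither Pycr1 nor Nupr1 turned direction under an alternative, and why these counts moved was not tested. With 3 samples a group, the spread inside the TRM-like group limits most of these comparisons, and genes under 10 counts are limited by depth.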
